A study of Danio rerio with 16 samples.

Results

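The genes meis1b, meis2a and meis3 encode Meis proteins, cofactors of the Hox transcription factors. They were taken by gene symbol from the probe annotation, which gave each of them 1 probe set, and all 3 passed the filter on low values, among 7118 named genes measured. The samples were whole wild-type zebrafish embryos of AB/WIK hybrid parentage, freed of their chorions and collected at 11 hours post fertilization (hpf), and expression was read on Affymetrix zebrafish arrays. The groups were all-trans retinoic acid (RA) at 0.33 µM from 6.5 hpf, the retinoic acid receptor antagonist AGN193109 at 10 µM from 5.25 hpf, the same antagonist at 1 µM from 5.25 hpf, and 2% dimethyl sulfoxide (DMSO), the solvent in which every compound was delivered, from 5.25 hpf. Each group held 4 independent samples, 16 arrays in all. RA embryos were thus exposed for 4.5 hours and all other embryos for 5.75 hours, so compound and time of exposure cannot be told apart in any comparison of RA with another group.

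Meis proteins belong to the TALE class of homeodomain proteins, which also includes the Pbx, Prep (pknox) and Tgif proteins among others. A Meis protein binds to a Pbx protein, and the pair binds DNA beside a Hox protein, which raises the affinity and selectivity of the Hox protein for its target genes. In the zebrafish hindbrain, Meis and Pbx proteins act with the first Hox proteins to start programmes of segment identity, hoxb1a being a well-known target. RA, made from vitamin A in the trunk mesoderm, spreads into the posterior hindbrain and activates hox genes there through the retinoic acid receptors. In mouse, Meis2 is known as an RA-responsive gene of cultured embryonal carcinoma cells, and Meis1 and Meis2 as RA-induced genes of the proximal limb bud.

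Array medians ran from 72.8 to 78.3 on the linear intensity scale. Arrays of the same group correlated at a mean r of 0.975 to 0.989 over all tested probe sets. With arrays of other groups, replicates 1 and 4 of the antagonist at 1 µM correlated at a mean r of 0.967 and 0.966, against 0.978 for its replicates 2 and 3, and DMSO replicate 3 did so at 0.968, against 0.979 for the other DMSO arrays. The RA arrays correlated with those of other groups at 0.953 to 0.965. Markers of 9 tissues and layers were read in the labelled material, whole embryos, and each list had measured members. On each array 73.1% to 77.1% of probe sets lay above log2 4, so measured members were no test of the label. The markers at or below log2 4 on all arrays of a group were egr2b and tal1 in the RA embryos. In bulk samples such as these, fewer cells that express a gene and less RNA in each of them cannot be told apart.

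All 3 genes rose under RA, meis2a most of all, whereas the antagonist lowered meis2a and meis3 and left meis1b without a call at either dose. In each gene the group means ran in the same order, with RA embryos highest, DMSO embryos next, then embryos given 1 µM of the antagonist, and those given 10 µM lowest. Of the steps between neighbours in that order, that from DMSO to RA was called for all 3 genes, that from DMSO to 1 µM for meis3 alone, and that from 1 µM to 10 µM for none. By the group means, the DMSO level stood at different places on that scale, a difference that was not itself tested. On the way up from the mean at 10 µM antagonist to the mean under RA, the DMSO mean lay at 19.7% of the distance for meis1b, 40.4% for meis2a and 58.3% for meis3 on the log2 scale.

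**Figure D1:**
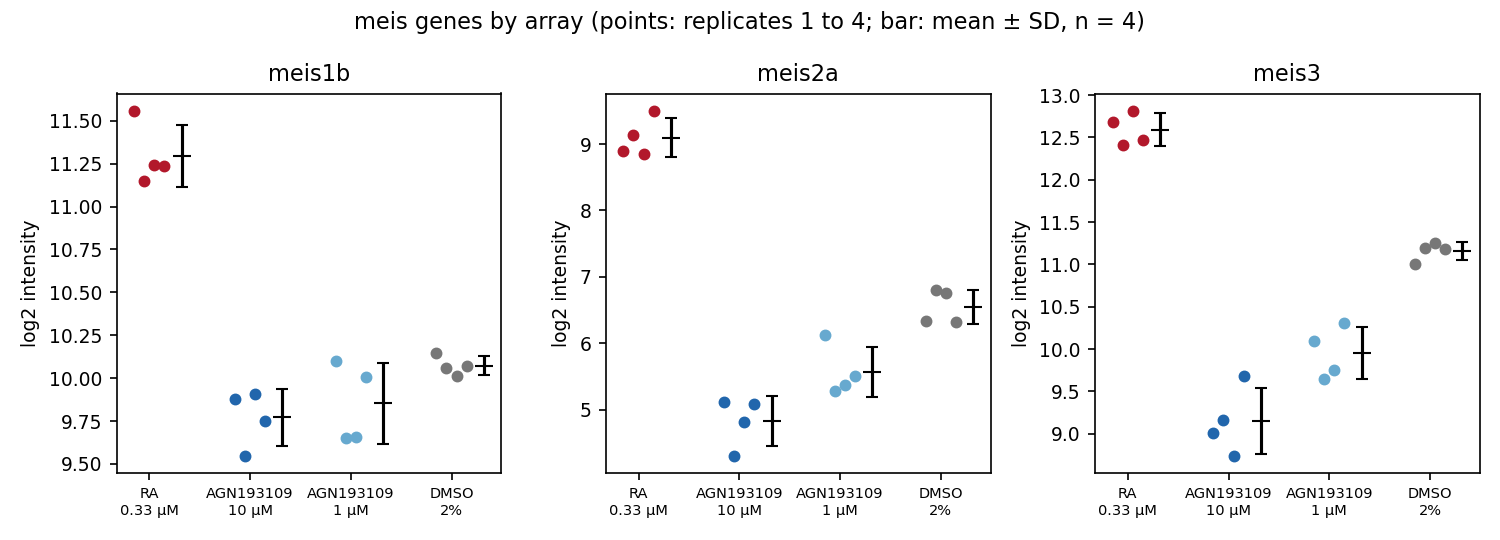
The vertical axis of each panel is log2 intensity and the horizontal axis is the group, RA 0.33 µM, AGN193109 10 µM, AGN193109 1 µM and DMSO 2%. Points are arrays (replicates 1 to 4) and bars are mean ± SD (n = 4). The RA arrays lie above all others in the 3 panels. The antagonist arrays lie below all DMSO arrays for meis2a and meis3, with replicate 1 of 1 µM near DMSO for meis2a. For meis1b the 10 µM arrays lie below all DMSO arrays and the 1 µM arrays overlap with them. Each panel has its own axis, and levels are not comparable between genes.

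To find how the genes answer to excess RA, the RA arrays were set against the DMSO arrays. The probe set of meis2a had intensities of 479, 561, 463 and 725 in RA embryos (replicates 1 to 4), against 80.8, 111, 108 and 80.1 in DMSO embryos. The groups lay far apart, and RA replicate 4 was the highest of all 16 arrays. In log2 the means were 9.10 ± 0.30 under RA and 6.55 ± 0.26 under DMSO (SD, n = 4 each), a fold change of 2.55 ± 0.22 (SE), or 5.84-fold (limma, adjusted p = 2.69e-07).

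For meis3 the RA embryos had 6587, 5424, 7206 and 5656, against 2057, 2351, 2433 and 2317 in DMSO embryos. No RA array came near a DMSO array, and the DMSO arrays were close to each other. The log2 means were 12.59 ± 0.19 under RA and 11.16 ± 0.11 under DMSO (SD), which gives a fold change of 1.43 ± 0.18 (SE), or 2.70-fold (limma, adjusted p = 3.75e-05). Zebrafish meis3 is the family member best known from the hindbrain, where its product cooperates with Pbx4 and Hox proteins of group 1.

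For meis1b the intensities were 3015, 2269, 2421 and 2409 under RA, against 1133, 1067, 1032 and 1075 under DMSO. RA replicate 1 was the highest array and the DMSO arrays all lay between 10.01 and 10.15 in log2. The means were 11.30 ± 0.18 under RA and 10.07 ± 0.06 under DMSO (SD), a fold change of 1.22 ± 0.13 (SE), or 2.34-fold (limma, adjusted p = 4.92e-06). RA brought calls at 5.75% of all 11843 probe sets tested, 3.18% being higher and 2.57% lower, and all 3 of these genes were among the higher ones. The 4 RA arrays lay above the 4 DMSO arrays for the 3 genes, as they did for 5.44% of all tested probe sets.

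Markers of other tissues moved in the same comparison. Of 4 forebrain and eye markers 4 were lower, with a summed intensity per array of 229.5 to 808 in RA embryos, against 1982 to 3269 in DMSO embryos. Of 5 markers of somites and presomitic mesoderm 3 were lower, with sums of 1476 to 2198 in RA embryos, against 4659 to 6269 in DMSO embryos. Of 5 neural plate markers 2 were lower, with sums of 8261 to 8511 under RA, against 10337 to 11416 under DMSO. Of the 2 hindbrain markers measured, hoxb1a was higher by 3.35 ± 0.18 and egr2b, a zinc finger gene of hindbrain segments, was at least 19.8-fold lower (adjusted p = 2.99e-12 in limma), and their summed intensity was 3820 to 4252 in RA embryos, against 685 to 774 in DMSO embryos. Both yolk syncytial layer markers measured were lower, with sums of 1363 to 1764 in RA embryos, against 3125 to 3696 in DMSO embryos. Of 4 notochord and axial mesoderm markers 2 were lower, with sums of 1705 to 1795 in RA embryos, against 2279 to 2622 in DMSO embryos. Of 4 lateral plate, blood and vessel markers 1 was higher and 1, tal1, lower, with sums of 852 to 1022 in RA embryos, against 568 to 666 in DMSO embryos. Of 4 endoderm and 5 epidermis markers limma called 0, with 3 and 2 at an unadjusted p under 0.05. Endoderm sums were 632 to 794 in RA embryos, against 981 to 1090 in DMSO embryos, and epidermis sums were 24183 to 31694 in RA embryos, against 23544 to 25486 in DMSO embryos. The part of these changes in the result for the meis genes was not tested.

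To find how the genes depend on receptor activity, the 10 µM antagonist group was set against DMSO. The values of meis3 were 516, 576, 429 and 820 at 10 µM, against the DMSO values of 2057 to 2433 given above. Replicate 4 was the highest treated array and still lay below every DMSO array. In log2 the means were 9.15 ± 0.39 at 10 µM and 11.16 ± 0.11 under DMSO (SD), a fold change of -2.01 ± 0.18 (SE), or 4.02-fold lower (limma, adjusted p = 1.17e-05). By p-value meis3 ranked 6 of 11843 in this comparison, against 200 in the comparison of RA with DMSO. A rank depends on how many other probe sets changed, and 47 were called here, against 681 under RA. The ranks therefore do not compare the responses of meis3.

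The values of meis2a were 34.6, 19.8, 28.0 and 33.9 at 10 µM, against 80.1 to 111 under DMSO. All 4 treated arrays lay below all DMSO arrays. The log2 means were 4.83 ± 0.37 at 10 µM and 6.55 ± 0.26 under DMSO (SD), a fold change of -1.72 ± 0.22 (SE), or 3.30-fold lower (limma, adjusted p = 0.000500). The lowest of these arrays, at log2 4.31, was near the filter threshold of log2 4, where intensities hold little signal.

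The values of meis1b were 941, 749, 962 and 860 at 10 µM, against 1032 to 1133 under DMSO. The arrays did not overlap, although the gap between the highest treated and the lowest DMSO array was small. The log2 means were 9.77 ± 0.16 at 10 µM and 10.07 ± 0.06 under DMSO (SD). The fold change was -0.30 ± 0.13 (SE), with a 95% interval of -0.58 to -0.02, and was not called (limma, adjusted p = 0.901, unadjusted 0.0366). Of the 3 genes 2 were thus called lower, where 0.312% of all tested probe sets were lower, 0.0844% higher and 0.397% called in all. Non-overlap in the lower direction was seen for 2.17% of all tested probe sets and for all 3 of these genes.

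At 1 µM of the antagonist meis3 had 1099, 804, 861 and 1270, against 2057 to 2433 under DMSO. The treated arrays again lay below all DMSO arrays, with replicates 1 and 4 higher than 2 and 3. Log2 means were 9.95 ± 0.31 at 1 µM and 11.16 ± 0.11 under DMSO (SD), a fold change of -1.20 ± 0.18 (SE), or 2.30-fold lower (limma, adjusted p = 0.00979). Without replicates 1 and 4, the arrays of the 1 µM group that correlated least with other groups, it was -1.46 with an adjusted p of 0.00847. That choice was made after seeing the data. Within their own group replicates 1 and 4 correlated at a mean r of 0.976 and 0.975, near the 0.978 and 0.976 of replicates 2 and 3.

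For meis2a the values were 69.7, 38.8, 41.3 and 45.5 at 1 µM, against 80.1 to 111 under DMSO. These arrays did not overlap either, but replicate 1 lay much nearer to DMSO than the others. The log2 means were 5.57 ± 0.38 at 1 µM and 6.55 ± 0.26 under DMSO (SD). The fold change of -0.98 ± 0.22 (SE) was not called (limma, adjusted p = 0.127). Without replicate 1, the highest of these arrays, it was -1.17 with an adjusted p of 0.0421 (limma). Of 8 fits that each left out 1 array, only that 1 gave a call, and the adjusted p ran up to 0.456. Without replicates 1 and 4, a choice made after seeing the data, the fold change was -1.23 with an adjusted p of 0.0731.

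For meis1b the values were 1098, 803, 807 and 1031 at 1 µM, against 1032 to 1133 under DMSO. Replicate 1 lay inside the DMSO range and replicate 4 just under it, while replicates 2 and 3 lay clearly below. The log2 means were 9.85 ± 0.24 at 1 µM and 10.07 ± 0.06 under DMSO (SD), and the fold change of -0.22 ± 0.13 (SE), with a 95% interval of -0.50 to 0.06, was not called (limma, adjusted p = 0.747). Without replicates 1 and 4 it was -0.42 and not called (adjusted p = 1.00). Of the 3 genes 1 was called lower at this dose, where 0.118% of all tested probe sets were lower, 0.0253% higher and 0.144% called in all, and 2 did not overlap with DMSO, where 1.01% of all tested probe sets lay lower without overlap.

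**Figure D2:**
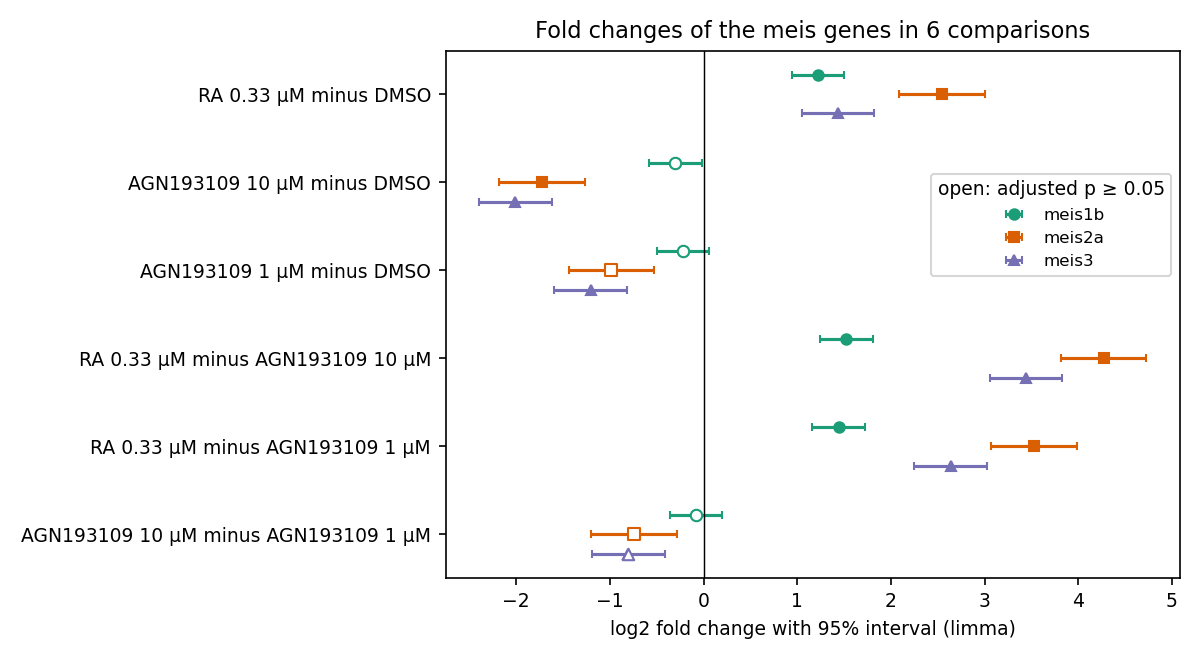
The horizontal axis is the log2 fold change with its 95% interval from limma, and the rows are the 6 comparisons, the group named first minus the second. Filled symbols passed an adjusted p of 0.05 and open symbols did not. The 3 genes are above 0 in every comparison with RA on top, and in the comparisons of the antagonist with DMSO the values of meis1b lie nearest to 0.

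The doses of the antagonist were compared with each other. The fold change at 10 µM over 1 µM was -0.80 ± 0.18 for meis3 (95% interval -1.19 to -0.41, adjusted p = 0.395 in limma), -0.74 ± 0.22 for meis2a (-1.20 to -0.28, adjusted p = 0.554) and -0.08 ± 0.13 for meis1b (-0.36 to 0.20, adjusted p = 0.854). None was called, where 0.00844% of the tested probe sets were, which is 1 probe set. The unadjusted p was 0.000449 for meis3, 0.00331 for meis2a and 0.540 for meis1b. The arrays at 10 µM lay below all arrays at 1 µM for meis2a, as for 2.14% of the tested probe sets, and overlapped for the other genes. The fall at 1 µM was 60.0% of that at 10 µM for meis3 and 57.1% for meis2a, on the log2 scale. Without replicates 1 and 4 of 1 µM the difference between the doses was -0.55 for meis3, -0.49 for meis2a and 0.12 for meis1b, none of them called (adjusted p = 1.00).

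By the fitted values the span from antagonist to RA was widest for meis2a, a ranking that was not tested. Over the other ways of processing given below, the span from 10 µM ran from 3.66 to 4.31 for meis2a. For meis3 it ran from 3.40 to 3.69, so these ranges overlapped, but only between different ways of processing. In the way that gave meis2a its lowest span, 3.66, the span of meis3 was 3.40. With array weights, which gave meis3 its highest span, 3.69, that of meis2a was 4.10. Within each way of processing the span of meis2a was the wider. RA embryos exceeded embryos at 10 µM antagonist by 4.27 ± 0.22 for meis2a, or 19.3-fold (limma, adjusted p = 2.39e-10), by 3.44 ± 0.18 for meis3, or 10.9-fold (adjusted p = 4.72e-10), and by 1.52 ± 0.13 for meis1b, or 2.88-fold (adjusted p = 2.35e-07). Against 1 µM the differences were 3.53 ± 0.22, 2.64 ± 0.18 and 1.44 ± 0.13 for the same genes in turn (adjusted p = 2.90e-09, 1.43e-08 and 5.25e-07). All 3 were called higher in both comparisons, where 4.79% and 3.66% of the tested probe sets were. These comparisons share the RA arrays, and those with DMSO share the DMSO arrays, so they are not independent of each other.

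Whether the genes responded by different amounts was tested on the difference of log2 intensity between a pair of genes within each array, with an exact two-sided permutation test of 4 against 4 arrays and adjustment over the 9 tests made. The smallest p that this design allows is 0.0286, which became 0.0429 after adjustment. That adjusted value depends on how many of the 9 tests reach the smallest p, so the tests that reach it pass or fail together. The pairs share genes and the comparisons share the DMSO arrays, so the tests are not independent. Under RA, meis2a rose by 1.32 more than meis1b and by 1.11 more than meis3 (exact p = 0.0286 and adjusted p = 0.0429 for each). In the first pair the difference was -2.20 ± 0.41 in RA embryos and -3.52 ± 0.30 in DMSO embryos (SD), and in the second -3.49 ± 0.46 in RA embryos and -4.61 ± 0.20 in DMSO embryos. No RA array overlapped with a DMSO array in either pair. Each gene was read by 1 probe set, and the effect of probe brightness on the size of a fold change was not tested. Over 3 other scalings of the intensities the difference from meis1b ran from 1.15 to 1.35 and that from meis3 from 0.93 to 1.11. The rises of meis1b and meis3 differed by -0.21 (exact p = 0.143, adjusted p = 0.184), and by -0.32 after quantile normalization, where the difference passed (exact test, adjusted p = 0.0367).

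Under the antagonist it was meis1b that stood apart from the other genes. At 10 µM meis2a fell by 1.42 more than meis1b, with a difference of -4.94 ± 0.27 at 10 µM and -3.52 ± 0.30 under DMSO, and meis1b stayed higher by 1.71 relative to meis3, with 0.62 ± 0.49 at 10 µM and -1.09 ± 0.16 under DMSO (SD, exact p = 0.0286 and adjusted p = 0.0429 for each). At 1 µM the same differences were -0.77 and 0.99, with the same p-values. The changes of meis2a and meis3 differed by 0.28 at 10 µM (exact p = 0.343) and by 0.22 at 1 µM (exact p = 0.286), and neither passed. With log2(intensity + 16) in place of log2 intensity the first was 0.68 and passed (exact test, adjusted p = 0.0367). The 6 differences that passed had adjusted p-values from 0.0514 to 0.0857 when DMSO replicate 2, 3 or 4 was left out, and kept their direction. All 6 still passed without DMSO replicate 1 or without any one treated array.

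**Figure D3:**
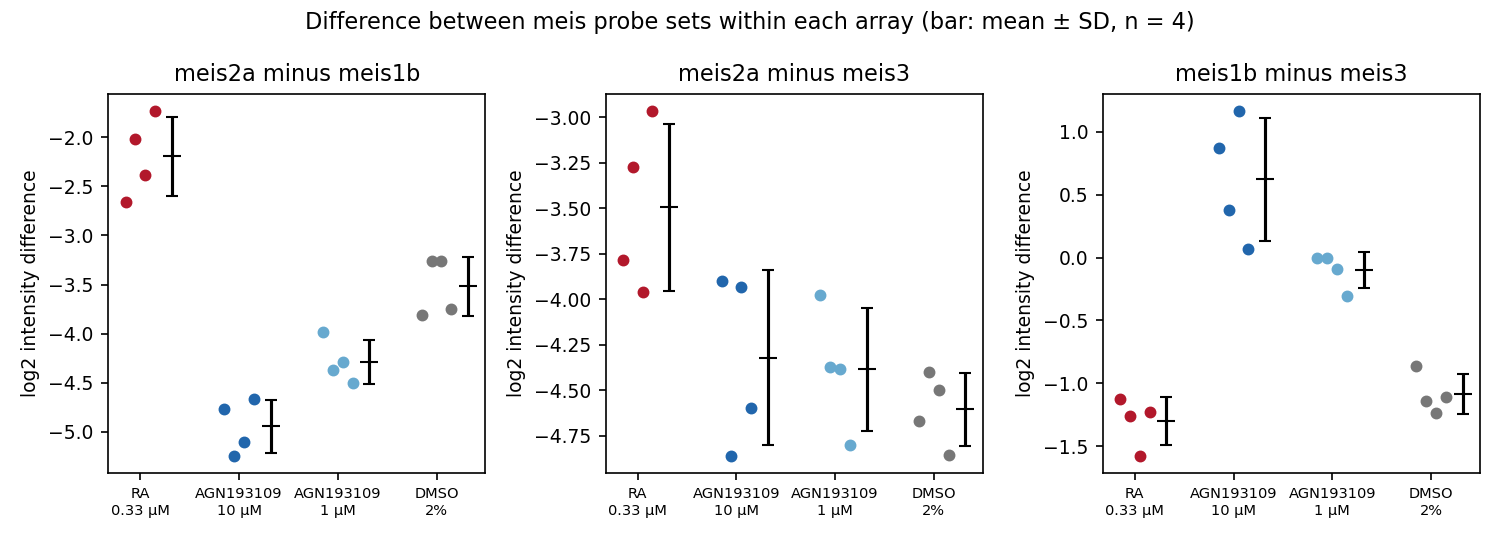
The vertical axis is the log2 intensity of the gene named first minus that of the second within an array, and the horizontal axis is the group. Points are arrays and bars are mean ± SD (n = 4). Only shifts between groups carry meaning, since probe sets differ in brightness. The difference of meis2a and meis1b is highest under RA and lowest at 10 µM antagonist, and that of meis1b and meis3 is highest at 10 µM.

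Other TALE genes of the Meis, Pbx, Prep and Tgif families were read in the same comparisons. The list left out other families of the class, so it does not show how the whole class responded. Of 12 genes listed, 9 passed the filter. Under RA 2 were higher and 1 lower, with a median of 0.07, against -0.01 over all 7118 genes. Both that rose were meis genes: meis2b by 1.85 ± 0.13 (adjusted p = 3.14e-08) and meis1a by 1.17 ± 0.16 (adjusted p = 6.98e-05, limma). The log2 mean of meis2b was 10.96 ± 0.16 in RA embryos and 9.11 ± 0.09 in DMSO embryos, and that of meis1a 7.01 ± 0.31 and 5.84 ± 0.20 in the same groups (SD). A second meis1a probe set gave 1.14 ± 0.20 (adjusted p = 0.00100). All 5 meis genes measured were therefore called higher under RA, where 3.18% of all tested probe sets were. This grouping by name was made after the values had been seen. Probes of one meis gene can bind a near-identical transcript of another, which the values cannot resolve.

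At 10 µM antagonist 1 of the 9 was lower and 0 were higher, with a median of 0.05, against -0.01 over all genes. The gene that fell was meis2b, by 0.77 ± 0.13 (limma, adjusted p = 0.00941), with a log2 mean of 8.33 ± 0.14 at 10 µM and 9.11 ± 0.09 under DMSO (SD). Its call was lost without DMSO replicate 1 (adjusted p = 0.0553). The log2 fold change of meis1a was -0.29 ± 0.16 (adjusted p = 0.994 in limma), against -0.30 ± 0.13 for meis1b. Its second probe set gave -0.54 ± 0.20 (adjusted p = 0.723 in limma), so the size for meis1a depends on the probe set. At 1 µM limma called 0 of the 9 genes, with 2 at an unadjusted p under 0.05 (meis1a at -0.41 ± 0.16 and meis2b at -0.38 ± 0.13) and a median of -0.04, against -0.02 over all genes. The second meis1a probe set had only -0.16 ± 0.20 at 1 µM (adjusted p = 0.871 in limma).

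The Pbx partners of Meis passed the test nowhere. Of 4 pbx genes measured, limma called 0 in each of the 6 comparisons, with 0 at an unadjusted p under 0.05. The gene pbx4, which encodes the main Pbx protein of the early zebrafish embryo, had 0.20 ± 0.20 under RA (95% interval -0.22 to 0.61) and 0.04 ± 0.20 at 10 µM antagonist (-0.37 to 0.46), and pbx2 had 0.11 ± 0.11 (-0.13 to 0.35) and 0.05 ± 0.11 (-0.19 to 0.29) in the same comparisons. The pbx1a and pbx3b probe sets were near log2 4, with group means of at most 4.3. The Prep family gene pknox2 was at least 2.19-fold lower under RA, with all RA arrays at or below log2 4 (limma, adjusted p = 5.14e-05). The related pknox1.1 had -0.30 ± 0.14 (adjusted p = 0.348) and tgif1 0.07 ± 0.09 (unadjusted p = 0.431).

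**Figure D4:**
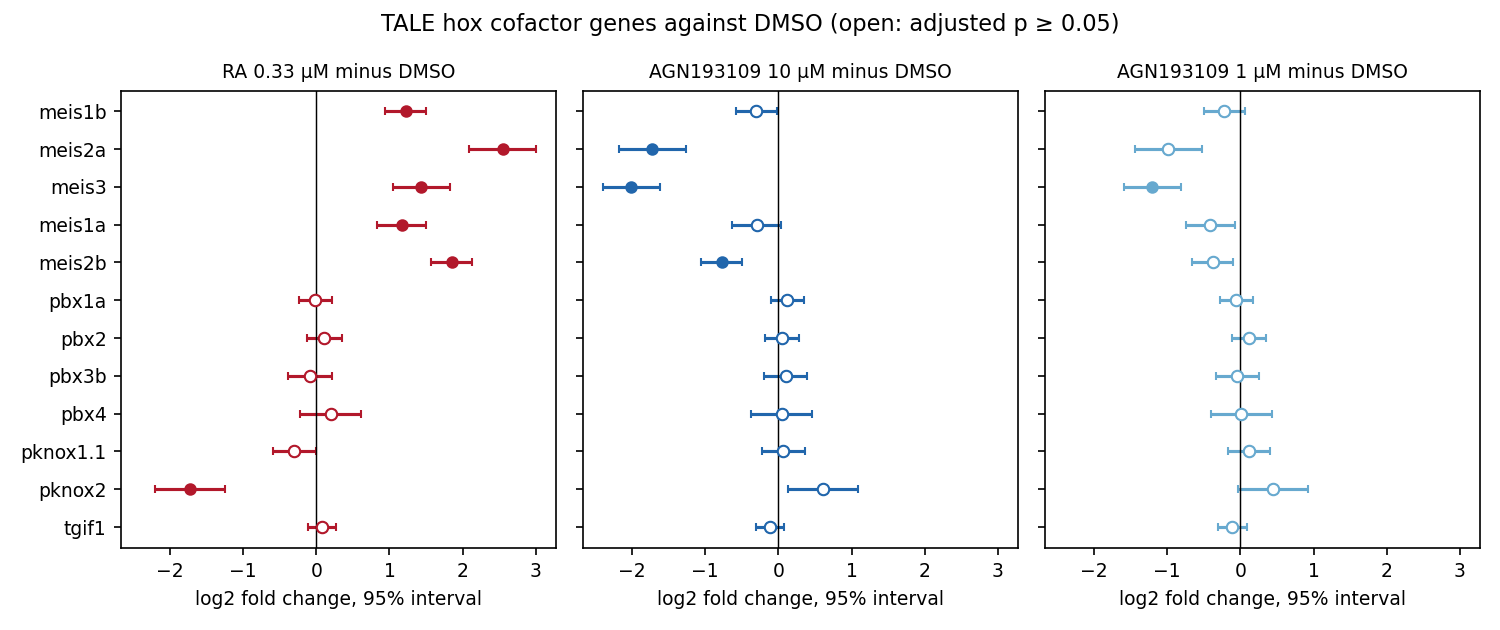
The horizontal axes are log2 fold changes against DMSO with 95% intervals from limma, with a panel each for RA 0.33 µM, AGN193109 10 µM and AGN193109 1 µM, and the rows are TALE genes. Filled points passed an adjusted p of 0.05. Under RA the 5 meis genes lie right of 0 and the 4 pbx genes around 0. The point of pknox2 under RA is the fitted value, where the text gives a bound.

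The hox genes of groups 1 to 4, whose products bind DNA with Meis and Pbx, held many called genes. Of 12 measured, 9 rose under RA and 1, hoxa2b, fell (median 3.18, against -0.01 over all genes), with hoxa4a at 4.74 ± 0.16, hoxb4a at 3.83 ± 0.18 and hoxb1a at 3.35 ± 0.18 (adjusted p of 2.99e-12, 1.58e-10 and 6.13e-10, limma). At 10 µM antagonist 5 fell and hoxa2b rose (median -0.29, against -0.01), among them hoxb1a with a log2 fold change of -2.05 ± 0.18 (adjusted p = 8.71e-06). The call of hoxb4a in that comparison was lost without any array except DMSO replicate 3 (adjusted p of up to 0.212). At 1 µM 3 fell and 0 rose (median -0.48, against -0.02), with hoxb1a at -1.79 ± 0.18 (adjusted p = 9.42e-05) and hoxa4a at -1.49 ± 0.16 (adjusted p = 0.000168). The hoxa3a call at 1 µM was lost without DMSO replicate 1, 2 or 4 or antagonist replicate 2 or 3 (adjusted p of up to 0.148).

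Other hindbrain genes were called under RA but not under the antagonist. Of 10 measured genes of hindbrain segments and their borders, 2 rose and 5 fell under RA (median -1.08, against -0.01 over all genes). The falls included egr2b and the homeobox genes irx7 at -4.99 ± 0.30 and gbx2 at -3.36 ± 0.24. The call of nr2f5, among those that rose, was lost without any array except RA replicate 2 (adjusted p of up to 0.159). At 10 µM and at 1 µM antagonist limma called 0 of the 10, with 2 at an unadjusted p under 0.05 at each dose. The medians were 0.18 and 0.16, against -0.01 and -0.02 over all genes. Of 10 genes for RA synthesis, breakdown and reception, 6 rose and 3 fell under RA, 1 rose and 2 fell at 10 µM, and 0 rose and 2 fell at 1 µM. The 2 that fell at both doses were dhrs3a, which encodes a retinaldehyde reductase and was at least 7.20-fold lower at each dose, and the receptor gene rxrga (-1.48 ± 0.15 at 10 µM and -1.37 ± 0.15 at 1 µM). The calls of cyp26b1 under RA and at 10 µM were lost without DMSO replicate 1, 3 or 4, RA replicate 2 or 4 or antagonist replicate 1, 2 or 3 (adjusted p of up to 0.121). Beside the counts of both lists stand the shares of all tested probe sets, 3.18% higher and 2.57% lower under RA. These shares were 0.0844% higher and 0.312% lower at 10 µM, and 0.0253% higher and 0.118% lower at 1 µM.

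The tissue markers were also read under the antagonist. At 10 µM limma called 0 of 5 neural plate, 0 of 4 forebrain and eye and 0 of 5 somite and presomitic markers (1, 0 and 0 at an unadjusted p under 0.05). Summed forebrain and eye intensity was 2200 to 2940 at 10 µM, against 1982 to 3269 in DMSO embryos. Summed intensity of somite and presomitic markers was 5943 to 6636 at 10 µM, against 4659 to 6269 in DMSO embryos. At 1 µM limma likewise called 0 markers of these lists (2, 0 and 0 at an unadjusted p under 0.05), although the neural plate sums of 11665 to 13466 at 1 µM lay above the 10337 to 11416 of DMSO embryos. The hindbrain markers summed to 394 to 662 at 10 µM and 485 to 627 at 1 µM, against 685 to 774 in DMSO embryos. Of these 2 markers hoxb1a was lower, as given above, while egr2b had 0.39 ± 0.18 at 10 µM (limma, adjusted p = 0.949) and 0.44 at 1 µM. Of the 10 measured genes of hindbrain segments and their borders, 8 lay above 0 and 2 below at each dose, with 0 called. Of the notochord, lateral plate, endoderm, epidermis and yolk syncytial layer markers limma called 0 at either dose. An unadjusted p under 0.05 was seen for 2 of 4 lateral plate, blood and vessel markers at 10 µM and 1 at 1 µM. It was also seen for 1 of 4 notochord markers at each dose, and for 0 in the other lists. Lateral plate sums were 588 to 1016 at 10 µM and 651 to 813 at 1 µM, against 568 to 666 in DMSO embryos. The part of hindbrain cell number in the falls of meis2a and meis3 was not tested.

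Likeness of pattern was measured as Pearson's r of log2 intensity over the 16 arrays, against each of 7115 other named genes, as a description. The points share 4 groups, so r mostly follows the group means, and r within groups is given beside it. For meis2a the highest values were those of wnt11, a non-canonical Wnt ligand gene (0.991, and 0.781 within groups), nr2f6b, an orphan nuclear receptor gene (0.989 and 0.587), nrip1b, a nuclear receptor corepressor gene (0.986 and 0.616), spsb4a (0.985 and 0.554) and hoxd4a (0.978 and 0.209). For meis3 they were pik3r3a, a regulatory subunit gene of phosphoinositide kinase (0.966 and 0.436), wnt11 (0.965 and 0.01), nrip1b (0.961 and 0.257), the phosphatase gene ppm1h (0.961 and 0.535) and nr2f6b (0.960 and 0.468). The genes wnt11, nr2f6b and nrip1b were thus near to both.

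For meis1b the nearest genes were others: znf503, a zinc finger repressor gene active in the zebrafish hindbrain (0.987 and 0.896 within groups), fgfr3, a fibroblast growth factor receptor gene (0.984 and 0.741), the orphan receptor gene nr2f1a (0.983 and 0.725), hoxb4a (0.978 and 0.470) and skib, a Ski family corepressor gene (0.977 and 0.724). The log2 fold change of znf503 was 2.38 ± 0.14 under RA and -0.93 ± 0.14 at 10 µM antagonist, and that of wnt11 was 1.89 ± 0.17 and -1.68 ± 0.17. Among the members, r was 0.951 for meis2a with meis1b (0.389 within groups), 0.957 for meis2a with meis3 (0.193) and 0.889 for meis1b with meis3 (0.244). The most opposite patterns were those of aplnra, an apelin receptor gene, for meis1b (-0.974), the transducer gene cdc42ep4a for meis2a (-0.969) and hoxa2b for meis3 (-0.964).

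**Figure D5:**
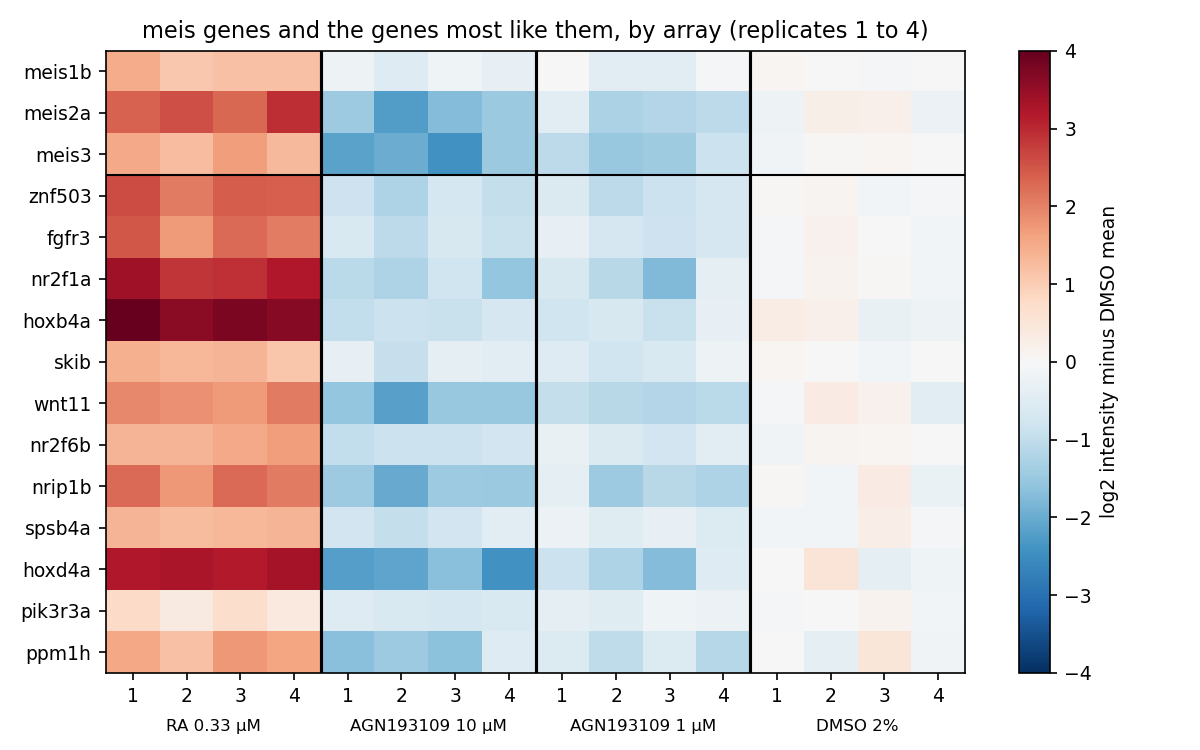
Colour is log2 intensity minus the mean of the DMSO arrays, columns are the 16 arrays by group and replicate, and rows are the meis genes (above the line) and the genes with the highest r to each. The genes were chosen for this likeness. The row of meis3 is blue across the antagonist arrays, and so is that of meis2a except at replicate 1 of 1 µM, which is pale (-0.43). The row of meis1b is pale across them, from -0.52 to 0.03.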

How the data were processed

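The deposited file holds a linear intensity for each probe set on each array, with a lowest value of 2. GCRMA is the method that the submitters' processing notes name, without a version. Groups and replicate numbers came from the sample titles. The records conflict on the antagonist and the doses: the titles spell it AGN193019, the design and protocol AGN193109, and the protocol gives mM where the titles and design give µM. AGN193109 and µM were used here. Log2 intensities of 11843 probe sets above log2 4 on at least 4 of 16 arrays were fitted in 1 linear model of 4 group means with limma 3.58.1 (R 4.3.3; lmFit, eBayes), with Benjamini-Hochberg adjustment over all of them within a comparison and a call at an adjusted p under 0.05. The 115 control probe sets were left out. Precision is limited by the number of arrays. The model was also run on simulated data in which arrays varied independently, so that run cannot speak to arrays that deviate together.

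Gene names came from the platform annotation, updated by Entrez number (10718 matched, 1 changed); a gene is represented by its brightest probe set. A fold against a group with every array at or below log2 4 is a bound, set against log2 4. Named genes were all members, members of 4 gene lists (those called and those with the smallest adjusted p under RA), and the 5 genes most and 3 least like each member by Pearson's r. Not every gene of that rule is described. Members and lists were chosen with earlier results of these data known. Of the listed genes, pbx1b, pbx3a, hoxb1b, mafba and hnf1ba had no probe set of that name, and pknox1.2 and hoxa1a did not pass the filter. Deviations of same-numbered RA and DMSO arrays from their group means correlated at 0.134 to 0.336 in all 4 pairs, from the data and not from the labels, so the replicate number was also fitted as a block. In every other pair of groups these correlations took both signs. They ran from -0.455 to 0.764 for RA with 1 µM antagonist and from -0.016 to 0.501 for 1 µM antagonist with DMSO.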

Additional observations from a re-analysis of the deposited data

How the results depend on the processing

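The 18 log2 fold changes of the members kept direction and call under 143 of 144 fits that left out 1 array, the exception being meis2a at 1 µM antagonist (range -1.17 to -0.89). Of the other alternatives, array weights turned meis1b at 10 µM over 1 µM antagonist to 0.0212, and leaving out replicates 1 and 4 of 1 µM, chosen after seeing the data, turned it to 0.12; it was not called in any of them. Exact permutation over 8 arrays, unadjusted, gave a p of 0.0286 for 3 changes limma did not call: meis1b at 10 µM over DMSO (-0.30), meis2a at 1 µM over DMSO (-0.98) and meis2a at 10 µM over 1 µM (-0.74). The replicate block ended no call among the members and made none; under RA its adjusted p was 2.00e-06 for meis2a, 7.05e-05 for meis3 and 3.28e-06 for meis1b, and 804 probe sets were called, against 681. Quantile normalization brought the difference between meis1b and meis3 under RA to -0.32 (adjusted p = 0.0367), and log2(intensity + 16) that between meis2a and meis3 at 10 µM to 0.68 (adjusted p = 0.0367); the cause was not tested. Without 1 array, the 6 passing differences ranged from 1.17 to 1.47 and 0.93 to 1.27 (meis2a over meis1b and meis3, RA), -1.52 to -1.33 and 1.52 to 1.89 (meis2a over meis1b and meis1b over meis3, 10 µM), and -0.87 to -0.68 and 0.94 to 1.06 (the same, 1 µM). Counts of called probe sets moved more: with array weights from 681 to 1194 for RA over DMSO, 47 to 255 for 10 µM over DMSO and 1048 to 1946 for RA over 10 µM; from 17 to 7 for 1 µM over DMSO when its 8 arrays were fitted alone; and from 1 to 2 for 10 µM over 1 µM with arrays centred on their median. Without 1 array they were 29 to 44 for 10 µM over DMSO (29 without DMSO replicate 1, 30 without 10 µM replicate 1), 9 to 17 for 1 µM over DMSO (9 without DMSO replicate 1, 11 without DMSO replicate 2) and 1 to 3 for 10 µM over 1 µM (3 without 1 µM replicate 2, 2 without 1 µM replicate 3).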

Other observations

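The genes beside the members on the chromosomes were looked up in gene order of the assembly GRCz12tu, up to 3 protein-coding genes to either side of each member. Of these 18 neighbours 8 had a tested probe set, among them psap and c1d beside meis1b, spred1 and cdin1 beside meis2a, and sirt2 and ech1 beside meis3. In the comparisons of RA and of both antagonist doses with DMSO, limma called 0 of the 8 neighbours, and 1 of 24 tests had an unadjusted p under 0.05. Their log2 fold changes ran from -0.60 to 0.37, with a lowest adjusted p of 0.333.

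Within the antagonist at 1 µM, the arrays that correlated least with other groups, replicates 1 and 4, were also the higher ones for meis1b (1098 and 1031, against 803 and 807 in replicates 2 and 3) and for meis3 (1099 and 1270, against 804 and 861). For meis2a they had 69.7 and 45.5, against 38.8 and 41.3. These are 2 arrays each, and no test was made.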
